A study of Mus musculus with 6 samples.

Results

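Integrins are surface receptors built of 1 α and 1 β chain, and the ICAM proteins are the immunoglobulin-type ligands of the integrins that carry the β2 chain. On follicular B cells, LFA-1 (αL with β2) binds ICAM-1 and ICAM-2 on other cells, and the α4 chain pairs with β1 to bind VCAM-1 or with β7 to bind MAdCAM-1. These pairs hold B cells on vessel walls and stroma and set how they adhere to antigen-presenting surfaces and T cells. The members were taken from the count table by gene symbol, with no threshold on their values: Itgal, Itgb2, Itga4, Itgb1, Itgb7, Itgam, Icam1 and Icam2. All 8 were among the 12431 genes of the count table, and all 8 were among the 10514 that passed the filter on low counts.

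RNA was sequenced from splenic follicular B cells (CD21/35- CD23+ by label) of adult male mice after 1 h of culture in complete RPMI with serum and with no added stimulus. There were 3 WT libraries (Gpr174+/Y) and 3 KO libraries (Gpr174-/Y). GPR174 is an X-linked G protein-coupled receptor for lysophosphatidylserine, and the KO allele is a germline change in which a tdTomato reporter replaces the coding exon, so cells other than B cells carry it too. The comparison asks which transcripts differ between genotypes after 1 h of culture. No uncultured libraries were used here, so differences present before culture and those that arose in it cannot be told apart.

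Total counts ranged from 8452460 to 10944833 per library. Levels are given as CPM, reads relative to library size after TMM scaling, and log2 fold changes as WT over KO. Gpr174 itself was at 136, 125.5 and 121.5 CPM in the WT libraries against 99.9, 100.2 and 99.8 CPM in the KO libraries. Reads were thus still counted at the altered locus, and the counts do not tell which part of the gene they come from. Of the B cell and follicular B cell markers, Ms4a1, which encodes CD20, was at 1274 to 1413 CPM and Fcer2a, which encodes CD23, at 403 to 571 CPM. Pax5 (7.41 to 15.3 CPM) and Cd79a (44.5 to 58.0 CPM) were the lowest of the 7 B cell markers analysed here. Cr2, which encodes CD21/35, was at 981 to 1166 CPM, although the sort label is CD21/35-. WT replicate 2 stood apart on the first principal component, with a score of 32.5 against -8.18 to -4.33 in the other libraries, so values without it are given where a result rests on it.

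Among the 8 members, 1 was called at an edgeR adjusted p under 0.05, the ICAM gene Icam2, which was lower in WT. Over all tested genes 1.82% were called, 1.3% higher and 0.514% lower in WT. No member was called higher in WT by edgeR, by DESeq2 or by limma-voom. At an unadjusted p under 0.05 there were 2 members, Icam2 and Icam1, both lower in WT, where 11.9% of all tested genes were below that p. WT and KO values did not overlap in 3 members, Icam1, Icam2 and Itgb2, where 16.7% of all tested genes had groups that did not overlap. The median log2 fold change of the members was 0.0017, against -0.0026 over all tested genes.

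**Figure D1:**
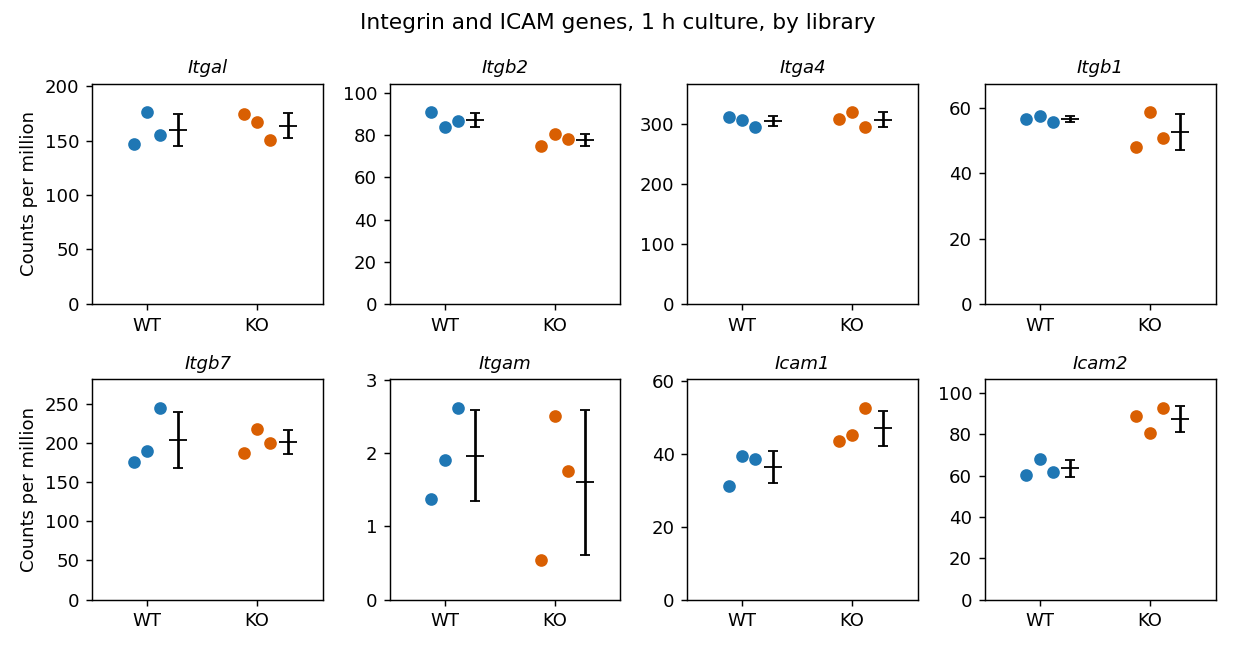
CPM of each member in every library (points), with the group mean and SD (black bars, n = 3), each panel on its own linear axis from 0. The Icam2 points lie between 60.4 and 68.1 in WT and between 80.4 and 92.6 in KO, while the points of Itgal, Itga4, Itgb7 and Itgam overlap between genotypes.

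Icam2 (ENSMUSG00000001029.15, chromosome 11, 106377656 to 106388075, minus strand, mm10) encodes ICAM-2, a ligand of LFA-1 that is present on resting lymphocytes and endothelium. Its level was 60.4, 68.1 and 61.9 CPM in WT replicates 1 to 3 and 89.0, 80.4 and 92.6 CPM in KO replicates 1 to 3. Every KO library was above every WT library. The WT mean was 63.5 CPM ± 4.09 and the KO mean 87.3 CPM ± 6.30 (SD, n = 3 each). The log2 fold change was -0.46 ± 0.10 (SE), with a 95% interval from -0.68 to -0.25 and an edgeR adjusted p of 0.0139, so that KO cells held 1.38 times the WT level. In bulk RNA, fewer expressing cells and less RNA per cell cannot be told apart. DESeq2 gave an adjusted p of 0.00394 and limma-voom 0.0129.

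The Icam2 call depended on single libraries. Of the 6 fits with one library omitted, 4 no longer called it, with an edgeR adjusted p of 0.0709 without WT replicate 1, 0.063 without WT replicate 3, 0.0813 without KO replicate 1 and 0.141 without KO replicate 3. It was kept without WT replicate 2 (0.00817) and without KO replicate 2 (0.0227). The log2 fold change stayed between -0.52 and -0.42 over these 6 fits.

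Endothelium, platelets, monocytes, T cells and NK cells also bear ICAM-2. Of 7 endothelial markers, 1 was analysed here, Stab2, at 0.097 to 1.36 CPM. The 7 megakaryocyte and platelet markers summed to 23.2 to 34.6 CPM in WT and 17.4 to 30.5 CPM in KO, and the 10 of 11 T cell markers analysed here to 51.4 to 77.8 CPM in WT and 38.4 to 62.3 CPM in KO. These ranges overlapped, as did those of the NK cell sums, given with Itgam, whereas the myeloid sums, given with Itgb2, did not. The platelet, T cell, NK cell and myeloid sums each had a higher mean in WT. Most of the T cell sum came from Lck, at 29.7 to 56.5 CPM, and the other T cell markers were each at 10.3 CPM or less. The 7 of 9 B cell markers analysed here summed to 4576 to 4755 CPM in WT and 5102 to 5273 CPM in KO. Of these 7, 1 was called, Cd79b, the Igβ chain of the B cell receptor, which was lower in WT (log2 fold change -0.39, edgeR adjusted p 0.000358), while Cd79a, the Igα chain, was at 46.1 to 58.0 CPM in WT and 44.5 to 52.3 CPM in KO. The part of these cell markers in the Icam2 result was not tested.

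Icam1 (ENSMUSG00000037405.8, chromosome 9, 21015985 to 21028817, plus strand) encodes ICAM-1, the ligand of LFA-1 and Mac-1 that NF-κB induces on activated cells. It was at 31.2, 39.2 and 38.6 CPM in WT and at 43.4, 45.1 and 52.5 CPM in KO. As for Icam2, the lowest KO library lay above the highest WT library, here by a smaller margin. The log2 fold change was -0.37 ± 0.14 (SE), with a 95% interval from -0.65 to -0.09 before adjustment over genes. It did not pass the test, with an edgeR adjusted p of 0.217, and DESeq2 (0.225) and limma-voom (0.194) did not call it either. Over the fits without one library its adjusted p ranged from 0.168 to 0.637. In the GENCODE annotation, 511 exonic bases of Icam1 are shared with Gm47079 on the opposite strand, and the use of strand in counting was not stated, so reads of the 2 genes may not be separable.

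**Figure D2:**
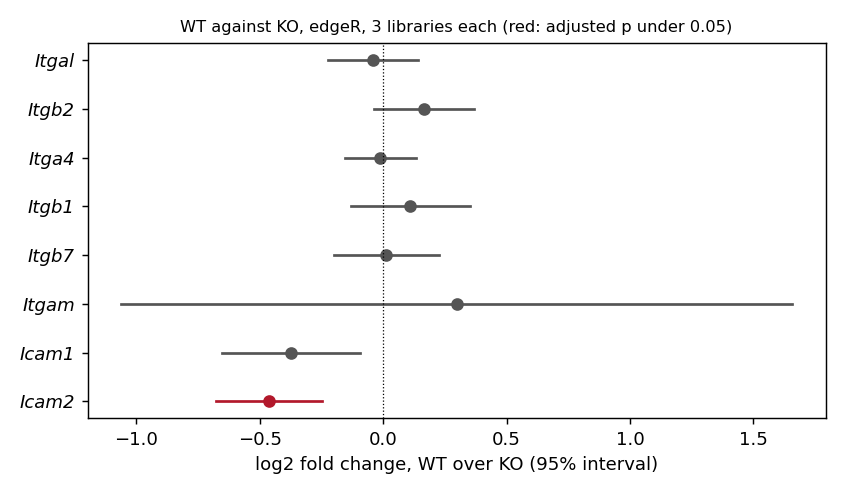
Log2 fold change of each member, WT over KO (points), with its unadjusted 95% interval (lines), from the edgeR fit over all genes with 3 libraries per genotype. Icam2 (red) is the member with an adjusted p under 0.05, the interval of Icam1 also lies below 0, and that of Itgam is the widest, from -1.06 to 1.66.

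The profile of Icam2 over the 6 libraries was compared with every other tested gene by the root mean square difference of mean-centred log2 CPM. The nearest were Rnf122, at 0.037, Olfr164, at 0.051, and Foxj3, at 0.055. Each was lower in WT, which the choice by profile fixed in advance, so this lends no weight to the Icam2 result. Rnf122, a RING-finger protein, had a log2 fold change of -0.51 (edgeR adjusted p 0.0127). Olfr164 (-0.55, adjusted p 0.223) and Foxj3 (-0.51, adjusted p 0.316) were not called.

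Promoter sequence was examined because the study concerns a receptor that signals through cAMP, and because Icam1 is a known NF-κB target. Of the 8 members, 5 matched an entry in the RefSeq promoter set (GRCm38.p6): Itga4, Itgam, Itgb1, Itgb7 and Icam1. The 250 bases before each start were searched on both strands for TGACGTCA, the full cAMP response element, for TGACG, its core, which the full element contains, and for GGAAATTCC, an NF-κB-type sequence. The full element was in none of the 5 and in 1.55% of all 32851 promoters. TGACG was in Itgb1, 21 bases before the start, and in 17.8% of all promoters. GGAAATTCC was in Icam1, 153 bases before the start, and in 0.286% of all promoters. It was searched for because Icam1 is a known target, so the share over all promoters gives this match no weight. The 2 promoters with a match are printed 5′ to 3′ with the matched letters in capitals, Icam1 from chr9:21015690-21015939 and Itgb1 from chr8:128685404-128685653, both on the plus strand. A match of letters describes the window and is not evidence of binding.
Icam1: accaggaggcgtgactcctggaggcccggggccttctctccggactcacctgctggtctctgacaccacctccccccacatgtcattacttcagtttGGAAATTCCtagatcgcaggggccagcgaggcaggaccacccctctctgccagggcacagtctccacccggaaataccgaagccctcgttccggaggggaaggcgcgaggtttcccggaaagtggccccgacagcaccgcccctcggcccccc
Itgb1: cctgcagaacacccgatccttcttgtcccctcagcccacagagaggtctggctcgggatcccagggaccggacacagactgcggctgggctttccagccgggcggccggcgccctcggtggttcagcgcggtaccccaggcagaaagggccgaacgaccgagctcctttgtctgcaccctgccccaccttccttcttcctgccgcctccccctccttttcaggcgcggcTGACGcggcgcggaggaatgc

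The chains of LFA-1 were examined next. Itgal (chromosome 7, 127296260 to 127335138, plus strand) encodes αL. It was at 147, 176 and 155 CPM in WT and at 174, 167 and 151 CPM in KO. The groups overlapped, the log2 fold change was -0.04 ± 0.09 (SE), and the 95% interval from -0.22 to 0.14 covers a change of the WT level from -14.2% to 10.2%. The edgeR adjusted p was 0.905.

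Itgb2 (chromosome 10, 77530252 to 77565708, plus strand) encodes β2, the chain shared by LFA-1 and Mac-1. It was at 90.9, 84.0 and 86.9 CPM in WT and at 74.8, 80.7 and 78.0 CPM in KO. All WT libraries were above all KO libraries, but the difference did not pass the test, at a log2 fold change of 0.17 ± 0.10 (SE), a 95% interval from -0.04 to 0.37 and an edgeR adjusted p of 0.546. Myeloid cells also express β2, and the 13 of 16 myeloid markers analysed here summed to 119 to 146 CPM in WT and 102 to 108 CPM in KO. Of the 9 of them that were tested, 1 was called higher in WT, Cebpb (log2 fold change 1.07, edgeR adjusted p 0.0364). Most of the sum came from Csf1r, Mpeg1, C1qa, C1qb and C1qc, at 10.1 to 32.9 CPM in all libraries. Lyz2 and Cd14 were at 0.568 to 4.29 CPM. S100a8 and S100a9 were highest in WT replicate 2, at 12.4 and 13.4 CPM, and at 0.454 to 6.65 CPM in the other libraries. The part of these markers in the Itgb2 values was not tested.

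Itgam (chromosome 7, 128062640 to 128118491, plus strand) encodes αM, the partner of β2 in Mac-1 on myeloid cells, NK cells and some B-1 cells. It was close to the limit of detection, with 15, 16 and 23 reads in WT and 6, 23 and 18 reads in KO, or 0.546 to 2.61 CPM. The 95% interval of its log2 fold change, from -1.06 to 1.66, is wider than 2-fold in either direction, so a difference of that size was not detectable at this depth (edgeR adjusted p 0.908). An annotated gene on the same strand, Gm49368, shares 3450 exonic bases with Itgam, so reads of the 2 genes may not be separable. The NK cell markers, 8 of 9 analysed here, summed to 9.54 to 17.9 CPM in WT and 7.92 to 9.59 CPM in KO. The 5 B-1 markers summed to 98.1 to 189 CPM in WT and 109 to 126 CPM in KO, most of it from Bhlhe40, and Cd5 was at 0.568 to 2.74 CPM.

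The α4 chain and its partners followed. Itga4 (chromosome 2, 79255426 to 79333123, plus strand), which encodes the α4 chain of VLA-4 and of α4β7, was at 312, 307 and 296 CPM in WT and at 308, 319 and 294 CPM in KO. The groups overlapped almost fully, at a log2 fold change of -0.01 ± 0.07 (SE) and a 95% interval from -0.16 to 0.13, and the edgeR adjusted p was 0.973. Its estimated biological coefficient of variation was 6.89%, the lowest of the 8 members, and 2.85% of tested genes had a lower one. Of its exonic bases, 1124 are shared with Cerkl on the opposite strand, which averaged 7.48 CPM in WT against 8.17 CPM in KO.

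Itgb1 (chromosome 8, 128685654 to 128733200, plus strand) encodes β1. It was at 56.7, 57.6 and 55.6 CPM in WT and at 48.1, 58.7 and 50.9 CPM in KO. KO replicate 2 lay above every WT library and the other 2 KO libraries lay below them. The log2 fold change was 0.11 ± 0.12 (SE), with a 95% interval from -0.13 to 0.35 and an edgeR adjusted p of 0.786.

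Itgb7 (chromosome 15, 102215995 to 102231944, minus strand) encodes β7, the chain used for homing to gut-associated tissue. It was at 176, 190 and 244 CPM in WT and at 187, 218 and 199.8 CPM in KO. WT replicate 3 was the highest of the 6 libraries and WT replicate 1 the lowest, so the WT libraries spanned all KO values. The log2 fold change was 0.014 ± 0.10 (SE), with a 95% interval from -0.20 to 0.23 and an edgeR adjusted p of 0.976. Its sign turned without WT replicate 3 (-0.14) and without KO replicate 1 (-0.04), and it was not called in either.

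Counts of partner or related genes were then set against each other within each library, which removes library size. The log2 ratio of Itgal to Itgb2 reads was 0.70, 1.07 and 0.84 in WT and 1.22, 1.05 and 0.95 in KO. The WT mean was lower by 0.21, with overlapping groups and an exact permutation p of 0.3 (two-sided, n = 3 per group, smallest possible p 0.1). The log2 ratio of Itgb7 to Itgb1 was 1.64, 1.72 and 2.13 in WT and 1.96, 1.89 and 1.97 in KO. WT libraries spread over a wider range than KO libraries, and the means differed by -0.11 (exact permutation p 0.5, n = 3). The log2 ratio of Icam2 to Icam1 was 0.95, 0.80 and 0.68 in WT and 1.04, 0.83 and 0.82 in KO, a difference of -0.09 (exact permutation p 0.4, n = 3). These are 3 tests, none of which could pass 0.05 in this design, and each p was 0.5 after Benjamini-Hochberg adjustment of the exact permutation values over the 3. All 3 pairs had overlapping groups.

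**Figure D3:**
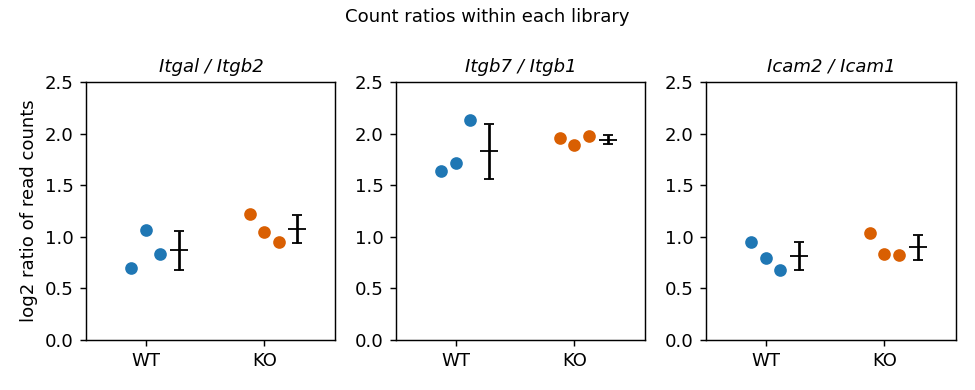
Log2 ratio of read counts within each library for Itgal to Itgb2, Itgb7 to Itgb1 and Icam2 to Icam1 (points), with group mean and SD (black bars, n = 3). WT and KO points overlap in all 3 panels, and the WT points of Itgb7 to Itgb1 reach from 1.64 to 2.13 around KO points between 1.89 and 1.97.

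Levels of different members can be ordered only with care, since the kit counts 3′ ends, whose number does not grow with transcript length. Per kilobase of the longest GENCODE transcript, the order by mean over the 6 libraries was Itgb7 (75.4 CPM per kb), Icam2 (58.8), Itga4 (31.3), Itgal (30.9), Itgb2 (27.8), Icam1 (16.4), Itgb1 (14.3) and Itgam (0.381). The ranges over libraries overlapped between Itgb7 and Icam2, between Itga4, Itgal and Itgb2 as neighbours, and between Icam1 and Itgb1. They did not overlap between Icam2 and Itga4, between Itgb2 and Icam1, or between Itgb1 and Itgam. Without division by length the order by mean CPM was Itga4 (306), Itgb7 (202), Itgal (162), Itgb2 (82.5), Icam2 (75.4), Itgb1 (54.6), Icam1 (41.7) and Itgam (1.78). The order thus depends on the scale. For 3′-end counts, division by length lowers long transcripts such as Itga4 (9.77 kb) against short ones such as Icam2 (1.28 kb). Mean CPM is therefore the better suited scale here, although it too need not order genes exactly.

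To place the members among other adhesion genes, 4 lists were counted in the same fit. They held 125 genes, of which 90 were tested, and 3 were called, all higher in WT: Cyth1, Cytip and Pvr. Over all tested genes edgeR called 1.82%, 1.3% higher and 0.514% lower in WT. An unadjusted p under 0.05 was found in 11.9% of all tested genes, the share to set beside each list below. DESeq2 called 5 genes of these lists, adding Cd2 and Csk, both lower in WT. None of the 3 called by edgeR is an integrin chain.

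**Figure D4:**
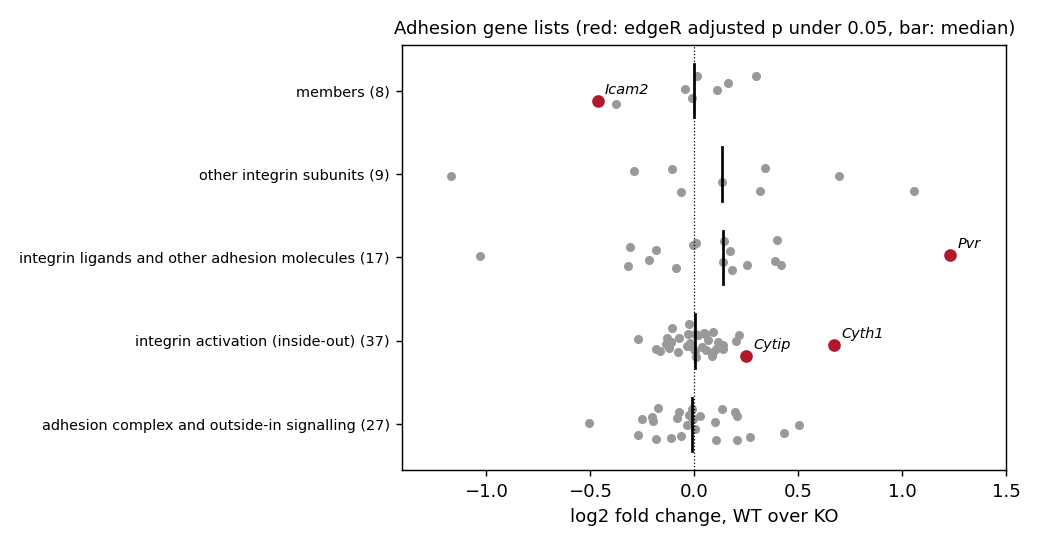
Log2 fold change, WT over KO, of each tested gene (points) in the members and in 4 adhesion lists, with the number tested in parentheses, called genes in red and the median of each list as a bar. The medians lie between -0.01 and 0.14, and the called genes are Icam2 below 0 and Cyth1, Cytip and Pvr above 0.

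The list of integrin activation genes held the factors that switch integrins from inside the cell. Of 37 tested, 2 were called higher in WT and 0 lower, with a median log2 fold change of 0.0062. At an unadjusted p under 0.05 there were 4, of which 3 were higher, and DESeq2 and limma-voom also called 2 higher and 0 lower. Cyth1 (chromosome 11, 118132019 to 118248592, minus strand) encodes cytohesin-1, an exchange factor for ARF GTPases that binds the β2 tail. It was at 184, 208 and 163.5 CPM in WT and at 137, 114 and 97.3 CPM in KO. Every WT library was above every KO library, the log2 fold change was 0.67 ± 0.11 (SE) at an edgeR adjusted p of 0.00176, and the call was kept in each of the 6 fits without one library (adjusted p 0.000125 to 0.0253).

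Cytip (chromosome 2, 58129137 to 58195532, minus strand) encodes the cytohesin-interacting protein, which binds cytohesin-1 and draws it away from the membrane. It was at 1055, 957 and 1013 CPM in WT and at 823, 836 and 884 CPM in KO. The groups did not overlap, and the log2 fold change was 0.25 ± 0.06 (SE) at an edgeR adjusted p of 0.0332. Of the 6 fits without one library, 5 lost the call, and it was kept without WT replicate 2 (adjusted p 0.017). The adjusted p was 0.176 without KO replicate 1, 0.149 without WT replicate 1, 0.0885 without WT replicate 3, 0.171 without KO replicate 2 and 0.0811 without KO replicate 3.

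The other abundant genes of this list were not called. Rap1b, the GTPase that relays chemokine and antigen receptor signals to integrins, had a WT mean of 613 CPM ± 15.0 and a KO mean of 617 CPM ± 29.6 (SD, n = 3), with a 95% interval of the log2 fold change from -0.14 to 0.12. Tln1, which encodes the talin that binds β tails, had a WT mean of 527 CPM ± 60.6 and a KO mean of 539 CPM ± 18.2 (SD, n = 3), with an interval from -0.19 to 0.12. The lower WT mean of Tln1 came from WT replicate 2, at 460.5 CPM, whereas WT replicates 1 and 3 were at 540.3 and 579 CPM.

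**Figure D5:**
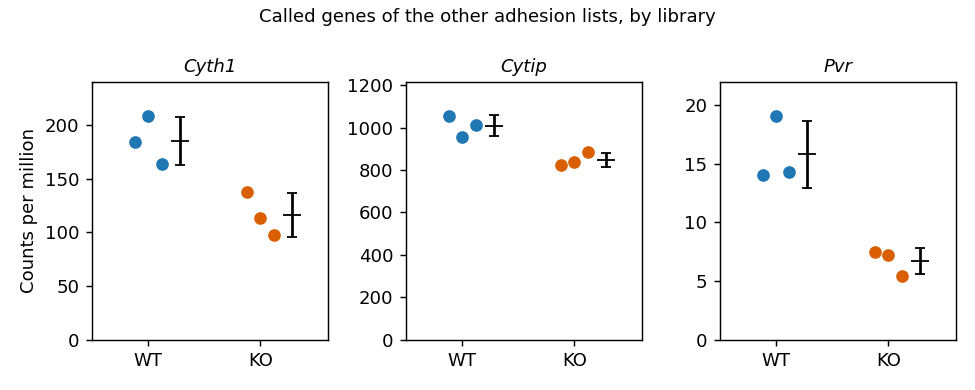
CPM of Cyth1, Cytip and Pvr in every library (points), with group mean and SD (black bars, n = 3), each on its own linear axis from 0. In all 3 genes each WT point lies above each KO point, by the widest relative margin for Pvr (14.0 to 19.1 in WT, 5.46 to 7.46 in KO).

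Of 17 tested genes in the list of integrin ligands and other adhesion molecules, 1 was called higher and 0 lower by edgeR. At an unadjusted p under 0.05 there were 7, of which 4 were higher in WT, and the median log2 fold change was 0.14. DESeq2 called 1 higher and 1 lower. Pvr (chromosome 7, 19903578 to 19921160, minus strand) encodes CD155, a nectin-like molecule bound by CD226 and TIGIT. It was at 14.0, 19.1 and 14.3 CPM in WT and at 7.46, 7.20 and 5.46 CPM in KO. The log2 fold change was 1.23 ± 0.25 (SE) at an edgeR adjusted p of 0.00496. The groups were well apart, and the call was lost only without KO replicate 3 (0.0572) among the 6 fits without one library. Cd2, which encodes an adhesion receptor for CD48, was at 336, 360 and 413 CPM in WT and at 408, 508 and 463 CPM in KO. The highest WT library lay above the lowest KO library, and the log2 fold change of -0.32 ± 0.08 (SE) had an edgeR adjusted p of 0.0536 and a DESeq2 adjusted p of 0.026. Cd47 had a WT mean of 339 CPM ± 78.2 and a KO mean of 307 CPM ± 25.0 (SD, n = 3, edgeR adjusted p 0.795). The higher WT mean of Cd47 came from WT replicate 2, at 429.8 CPM, whereas WT replicates 1 and 3 were at 291 and 298 CPM, below the KO mean.

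Of 9 other integrin chains tested, edgeR called 0, with 1 at an unadjusted p under 0.05 and a median log2 fold change of 0.13, and DESeq2 and limma-voom also called 0. The most abundant were Itga6, the laminin receptor chain, Itgb3 and its partner Itgav. Itgb3 was at 25.3, 25.0 and 29.9 CPM in WT and at 19.5, 21.7 and 23.2 CPM in KO. Its groups did not overlap, but with a log2 fold change of 0.32 ± 0.17 (SE) it was not called (edgeR adjusted p 0.479). Itga6 had a WT mean of 35.5 CPM ± 6.05 and a KO mean of 38.2 CPM ± 3.12, and Itgav had means of 18.8 CPM ± 1.42 and 17.2 CPM ± 0.90 in the same order (SD, n = 3).

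Of 27 tested genes for the adhesion complex and for signals from bound integrins, edgeR called 0, with 3 at an unadjusted p under 0.05 and a median log2 fold change of -0.0089. limma-voom called 0 and DESeq2 called 1, Csk, the kinase that restrains Src-family kinases. Csk was at 330, 350 and 331 CPM in WT and at 397, 405 and 399 CPM in KO. Its groups were well apart, and the log2 fold change of -0.25 ± 0.07 (SE) had adjusted p values of 0.0526 under edgeR, 0.0504 under limma-voom and 0.00768 under DESeq2. Nedd9, an integrin-signalling scaffold, had a WT mean of 443 CPM ± 20.7 and a KO mean of 384 CPM ± 15.7 (SD, n = 3, edgeR adjusted p 0.144). Lyn, a Src-family kinase, had a WT mean of 471 CPM ± 13.6 and a KO mean of 491 CPM ± 11.97 (SD, n = 3, edgeR adjusted p 0.789).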

How the data were processed

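Per the labels and the study's methods, the authors sorted follicular B cells by flow cytometry, made libraries with a 3′-end kit, used STAR to align single-end reads to mm10, and obtained gene counts from HTSeq. Versions and strand setting are not given in the sources used here. The deposited values are raw counts per gene, not normalized or pooled, and the smallest total in the table was 10 counts. Reads carry no molecular identifiers. SEs and intervals rest on the spread between 3 libraries per group together with dispersions that edgeR moderates over all tested genes. They are thus not a measure of the 3 libraries alone.

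Groups came from sample titles. Genes were filtered with filterByExpr, scaled by TMM and tested with edgeR (4.0.16, R 4.3.3) by the quasi-likelihood F test with robust dispersions, two-sided, and p-values were Benjamini-Hochberg adjusted over all 10514 tested genes (threshold 0.05). SE is the absolute log2 fold change over the square root of F, and 95% intervals use the fit's degrees of freedom. Per-library ratios were compared by an exact permutation test. DESeq2 (1.42.0), limma-voom (limma 3.58.1), RLE factors, library totals, no filter, a mean of at least 50 counts, the replicate number as a block, and omission of each library were alternatives. The edgeR step was tested on simulated counts.

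Replicates differed by more than sampling noise (chi-square per degree of freedom 6.89 to 10.9 within groups), and the labels give 3 mice per genotype. Members and lists were chosen with earlier results of these data known. Genes named were the members, Gpr174, called genes and the 3 most abundant of each list, and the 3 nearest profiles to a called member. Of the genes that met this rule, 1 is not reported here. Marker genes, also chosen from general knowledge, are named where a result touches them. Positions are from GENCODE M21 (mm10) and promoters from RefSeq (GRCm38.p6). No protein sequence was used here.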

Additional observations from a re-analysis of the deposited data

How the results depend on the processing

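The number of genes called was 191 and lay between 91 (without KO replicate 3) and 183 over fits without one library, with 113 without KO replicate 2. The number of members called was 1 under each test, scaling and filter run and ranged from 0 to 1 over fits without one library. The number of other adhesion genes called rose from 3 to 5, by Cd2 and Csk, under DESeq2, library totals alone, a mean of at least 50 counts and the replicate block, and ranged from 1 (without KO replicate 3) to 4 over fits without one library. The causes were not tested. With the replicate number as a block, 281 genes and 1 member were called. Same-numbered WT and KO libraries deviated together weakly (r 0.050, 0.014 and 0.043), and differently numbered ones had r from -0.040 to -0.0031. Whether same-numbered libraries share more than a number cannot be told from these values. The block changed no call on a member.

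Directions of members close to 0 were not stable. Itgb7 had a log2 fold change of -0.000258 under limma-voom. Over fits without one library the log2 fold change ranged from -0.12 to 0.015 for Itgal, from -0.041 to 0.016 for Itga4, from -0.14 to 0.11 for Itgb7 and from -0.12 to 0.76 for Itgam, and none of these was called. Icam1, Icam2, Itgb1 and Itgb2 kept their direction in all alternatives run. The 3 ratios kept theirs too, with differences from -0.31 to -0.12 for Itgal to Itgb2, from -0.26 to -0.014 for Itgb7 to Itgb1 and from -0.16 to -0.017 for Icam2 to Icam1 over fits without one library. Itgam could not be fitted with a mean of at least 50 counts. Few reads limit what can be said of Itgam.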

Other observations

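Among marker genes that no result of the integrin or ICAM genes touched, the activated B cell and plasma cell surface receptor Slamf7 was lower in WT (log2 fold change -0.47, edgeR adjusted p 0.00655), at 96.8, 82.2 and 106 CPM in WT and 127, 136 and 132 CPM in KO. It was the 1 called gene among the 4 of 5 plasma cell markers analysed here, which summed to 186 to 211 CPM in WT and 217 to 239 CPM in KO. Of 4 follicular B cell markers, Ccr7, the chemokine receptor for entry into T zones, was higher in WT (log2 fold change 0.28, edgeR adjusted p 0.0125) and Klf2, a factor for recirculation, was lower (-0.23, 0.0381). The sums of the 4 did not overlap, at 4161 to 4384 CPM in WT and 4415 to 4604 CPM in KO. Marginal zone B cell markers summed to 437 to 493 CPM in WT and 439 to 493 CPM in KO and erythroid markers to 34.6 to 72.5 CPM in WT and 40.3 to 140 CPM in KO, with 0 called by edgeR in each.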
